A study of Mus musculus with 31 samples.

Results

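Livers of 4 ERRα KO mice were compared with livers of 4 WT mice, all fasted and given saline, which are 8 of the 31 RNA-seq samples of the series. They were chosen by their labels, as livers of the insulin experiment whose genotype is WT or Err-alpha KO and whose treatment is control. Both groups are C57BL/6N mice on a standard diet that were fasted for 12 h overnight and injected intraperitoneally with saline. By the study's methods, livers were taken 4 h after the injection, at zeitgeber time 6, and mice were in general males of 2 to 3 months. The KO is a germline null allele, so the gene is lost in every organ and not in hepatocytes alone. Another 2 sets of livers are used for comparison and share no sample with these 8. In the same experiment, 4 WT and 3 ERRα KO mice, fasted in the same way, were given 1 unit of insulin per kg. In another experiment, livers of 4 ERRα 3SA mice, in which alanine replaces 3 phosphorylated serines of the receptor, were compared with livers of 4 WT littermates. Total counts were 37508292 to 41740965 per liver in the WT saline group and 39250853 to 48317108 in the KO saline group.

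ERRα is an orphan nuclear receptor, and with the PGC-1 coactivators it is known to drive genes of oxidative phosphorylation (OXPHOS), the tricarboxylic acid (TCA) cycle and mitochondrial biogenesis. It binds DNA at an extended half-site, the nuclear receptor half-site preceded by further fixed bases. In the fasted liver, PGC-1α is raised, and hepatocytes burn fatty acids, make ketone bodies and release glucose made from lactate and amino acids.

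*Esrra* (ENSMUSG00000024955, chr19:6910977-6921813 of GRCm38, minus strand), the targeted gene, had 32.7, 51.8, 43.2 and 40.8 CPM (counts scaled to library size by TMM) in WT replicates 1 to 4 and 1.64, 0.710, 1.17 and 1.05 CPM in KO replicates 1 to 4. Every KO liver was far below every WT liver, as the labels say, although 29 to 62 counts remained in each. The log2 fold change was −5.20 (standard error 0.24), so the KO level was 2.71% of WT, and the adjusted p was 2.58e-06 by edgeR's quasi-likelihood F-test and Benjamini-Hochberg adjustment, with 4 of 4 KO livers lower. The Y-linked gene *Ddx3y* had 2216 to 4489 counts in each of the 8 livers and *Xist* had 0 to 17, and the methods give males. Within 2 Mb of *Esrra*, 112 genes were tested, 0 were called by edgeR's quasi-likelihood F-test and Benjamini-Hochberg adjustment, and 4 met the study's DEG thresholds as higher and 3 as lower, with a median log2 fold change of 0.00. Of 10 genes of ERR receptors and PGC-1 coactivators tested, *Esrra* among them, 1 was a DEG higher and 3 were DEGs lower, with a median of −0.05. *Esrrg*, which encodes ERRγ, was not a DEG (log2 fold change 0.44). *Ppargc1a*, which encodes PGC-1α, had 18.1, 27.4, 11.5 and 14.9 CPM in the WT livers and 26.4, 21.1, 71.7 and 19.97 CPM in the KO livers. The groups overlapped and KO replicate 3 was the highest of the 8 (log2 fold change 0.95, standard error 0.40).

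In the fasted KO liver, mRNAs of the respiratory chain and ATP synthase had negative median log2 fold changes, and those of cytosolic ribosomal proteins were higher as a group. The number of single genes that passed adjustment over all genes depended on the tool. Of 13481 genes tested, 11 were called by edgeR's quasi-likelihood F-test and Benjamini-Hochberg adjustment (adjusted p below 0.05), 6 higher and 5 lower, or 0.0816% of those tested. By the study's DEG thresholds (unadjusted p below 0.05, fold change 1.2 or more), applied here to edgeR values where the study used DESeq2, 806 genes were higher (5.98%) and 714 lower (5.30%). With DESeq2 1.42.0, which tested 20106 genes, 219 were called, 124 higher and 95 lower, and by the DEG thresholds 906 were higher and 843 lower. Before adjustment, 1625 genes had a p below 0.05, where 674 would be expected by chance. The median log2 fold change over all genes tested was 0.00, and the biological coefficient of variation was 0.274. These are bulk liver samples, in which fewer cells of a type and less RNA per cell cannot be told apart. The number of calls depended on single livers: it was 47 without KO replicate 2, 6 without WT replicate 4, 5 without KO replicate 4, 4 without KO replicate 1 and 2 without WT replicate 1.

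Among the genes called by edgeR, 6 rose in the KO livers, none of them an OXPHOS subunit, and 5 are described here. *Wfdc2* (ENSMUSG00000017723, chr2:164562413-164568510), which encodes a secreted protein with WAP domains, had the largest rise of these 5. It went from 0.917, 0.416, 0.946 and 2.10 CPM in the WT livers to 6.42, 8.20, 9.78 and 9.92 CPM in the KO livers. The WT livers were low and the KO livers were all above them, 7.77-fold on average (log2 fold change 2.96, standard error 0.39). *Unc13b* (ENSMUSG00000028456, chr4:43058953-43264871), which encodes a vesicle priming protein, had 14.02, 12.4, 17.9 and 8.41 CPM in WT and 34.5, 55.9, 49.9 and 52.1 CPM in KO, a 3.66-fold rise with no overlap. *As3mt* (ENSMUSG00000003559, chr19:46707458-46741099), the arsenite methyltransferase gene, went from 61.3, 62.3, 49.3 and 53.6 CPM to 117, 105, 125 and 118 CPM, a 2.05-fold rise with tight replicates in both groups. *Mfsd2a* (ENSMUSG00000028655, chr4:122946850-122961188), which encodes a lysophospholipid transporter known to be induced by fasting, went from 101, 124, 100.2 and 119.7 CPM to 252, 196, 193 and 243 CPM (1.99-fold). *Arl4d* (ENSMUSG00000034936, chr11:101665541-101667832), a small GTPase gene, went from 22.3, 26.9, 19.04 and 21.4 CPM to 40.6, 37.02, 42.4 and 37.1 CPM (1.76-fold). In each of the 5, the lowest KO liver was above the highest WT liver. Adjusted p values by edgeR's quasi-likelihood F-test and Benjamini-Hochberg adjustment were 0.00756 for *As3mt*, 0.00997 for *Unc13b*, 0.0145 for *Mfsd2a*, 0.0149 for *Wfdc2* and 0.0332 for *Arl4d*, each higher in 4 of 4 KO livers.

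Besides *Esrra*, 4 called genes fell. *Cdh1* (ENSMUSG00000000303, chr8:106603351-106670246), which encodes E-cadherin, an adhesion protein of periportal hepatocytes and bile duct cells, had 37.7, 58.98, 40.3 and 24.7 CPM in the WT livers and 3.87, 4.43, 9.12 and 2.96 CPM in the KO livers. The highest KO liver, replicate 3, was below the lowest WT liver, replicate 4, and the KO level was 12.6% of WT (log2 fold change −2.98, standard error 0.36). Markers of bile duct cells (cholangiocytes), of which 6 were tested, held 0 DEGs in either direction, with a median of −0.10, and periportal hepatocyte markers are given further on. *Nav2* (ENSMUSG00000052512, chr7:48908716-49610090), which encodes a cytoskeletal navigator protein, went from 93.1, 83.96, 86.9 and 71.2 CPM to 46.2, 36.5, 33.8 and 42.9 CPM, 47.5% of WT. *2310061I04Rik* (ENSMUSG00000050705, chr17:35892677-35897431), a gene without an assigned name that is given after its values were seen, went from 14.5, 18.5, 14.4 and 15.9 CPM to 8.20, 8.07, 8.33 and 7.25 CPM, 50.3% of WT. *Atp5o* (ENSMUSG00000022956, chr16:91925214-91931687), which encodes the stalk subunit OSCP of ATP synthase, went from 73.3, 65.7, 76.6 and 76.4 CPM to 44.7, 44.97, 44.6 and 50.2 CPM, 63.2% of WT. None of these genes had overlapping groups. A second gene record with the symbol *Atp5o* shares exons with this one, so how its reads were divided is uncertain. By edgeR's quasi-likelihood F-test and Benjamini-Hochberg adjustment, the adjusted p was 0.00997 for *Cdh1*, 0.00997 for *Nav2*, 0.0145 for *2310061I04Rik* and 0.0316 for *Atp5o*, each lower in 4 of 4 KO livers.

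**Figure D1:**
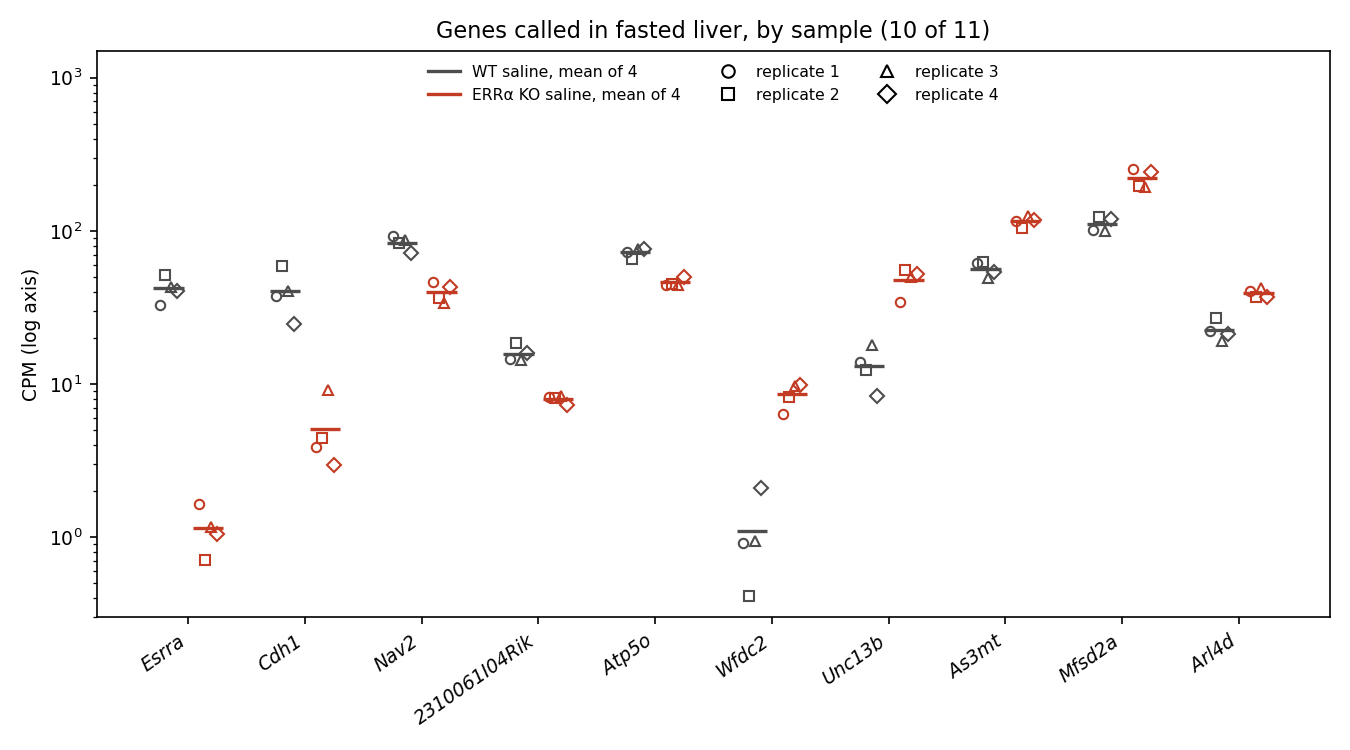
Levels of 10 of the 11 called genes in each saline liver, in CPM on a log axis, with WT and ERRα KO livers as points and group means as lines. In each of the 10 genes, *Esrra* included, the 4 KO livers lie on 1 side of the 4 WT livers.

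Of the 10 calls described, those of *Esrra* and *As3mt* were made with any 1 of the 8 livers left out. Without WT replicate 1 the other 8 were not called, and *Wfdc2*, *Mfsd2a*, *Arl4d*, *Cdh1*, *Atp5o* and *2310061I04Rik* were not called without KO replicate 1. *Mfsd2a*, *Arl4d*, *Atp5o* and *2310061I04Rik* were also lost without WT replicate 4, and these 4 and *Wfdc2* without KO replicate 4. *Arl4d*, *Atp5o* and *Wfdc2* were lost without KO replicate 3, and with *Mfsd2a* also without WT replicate 3. All 10 were called by DESeq2, which called 219 genes.

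*Cyp17a1* and *Htatip2* lay just outside the threshold, both with an adjusted p of 0.0540 by edgeR's quasi-likelihood F-test and Benjamini-Hochberg adjustment and higher in 4 of 4 KO livers. Whether they were called depended on the setting: both were by DESeq2, *Cyp17a1* also without the filter, with all groups in one fit and without WT replicate 2 or KO replicate 2, and *Htatip2* with the stricter filter. *Cyp17a1* (chr19:46667165-46673172), which encodes the steroid 17-alpha-hydroxylase, had 49.9, 81.02, 22.8 and 35.9 CPM in the WT livers and 266, 185, 488 and 188 CPM in the KO livers. KO replicate 3 was the highest and no groups overlapped (log2 fold change 2.57, standard error 0.41). *Cyp17a1* lies close to the called gene *As3mt* on chromosome 19, with *Borcs7* (chr19:46689906-46703382) between them. *Borcs7*, looked at after its neighbours' values were seen, had 7.10, 6.77, 6.14 and 9.80 CPM in WT and 11.4, 9.49, 9.17 and 12.02 CPM in KO and was a DEG higher, with WT replicate 4 inside the KO range (log2 fold change 0.49). Chromosome 19, which also carries *Esrra*, had 487 genes tested and 2 called, *Esrra* and *As3mt*, with 23 DEGs higher and 22 lower. *Htatip2*, an oxidoreductase gene named after its values were seen, had 27.5, 26.04, 25.4 and 24.7 CPM in WT and 37.2, 39.2, 39.2 and 37.3 CPM in KO (log2 fold change 0.56).

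The nuclear-encoded OXPHOS subunits had a negative median log2 fold change in the KO livers in all complexes. Over the 81 subunits tested, 34 were DEGs lower (against 5.30% of all genes) and 1 was a DEG higher, 67 had a negative log2 fold change, and the median was −0.24. The 1 member called by edgeR was *Atp5o*, while DESeq2 called 3 Complex I, 4 Complex II and III, 2 Complex IV and 5 ATP synthase members, all lower, *Ndufv1*, *Ndufa5*, *Ndufs1*, *Sdhd*, *Cyc1*, *Cox5a*, *Atp5b* and *Atp5g1* of those described below among them. The mean log2 CPM of the 81 genes was 5.60, 5.31, 5.54 and 5.63 in WT replicates 1 to 4 and 5.24, 5.30, 5.18 and 5.40 in KO replicates 1 to 4. WT replicate 2 was within the KO range, and the other 3 WT livers were above all KO livers. The direction was the same with DESeq2 size factors and RLE normalization.

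In Complex I, which takes electrons from NADH, 14 of 37 subunits were DEGs lower and 1 was a DEG higher (median −0.14), and 8 were DEGs lower without WT replicate 1 or without WT replicate 4, the median being −0.09 to −0.21 with each liver left out. *Ndufv1*, the NADH-binding subunit, had 127, 125, 133 and 124 CPM in WT and 90.4, 90.1, 77.7 and 88.01 CPM in KO. The groups were well apart, the log2 fold change being −0.55 (standard error 0.09), with an adjusted p of 0.0681 by edgeR's quasi-likelihood F-test and Benjamini-Hochberg adjustment, lower in 4 of 4 KO livers but not called. *Ndufa5* and *Ndufs1*, named after their values were seen, are subunits of the same arm of the complex. *Ndufa5* had 28.8, 20.4, 24.1 and 29.3 CPM in WT and 14.99, 13.02, 12.9 and 17.8 CPM in KO (log2 fold change −0.81). *Ndufs1* had 106, 90.6, 87.7 and 90.8 CPM in WT and 75.6, 66.5, 67.1 and 67.5 CPM in KO (log2 fold change −0.44). Neither gene's groups overlapped. Among Complex II and III subunits, 8 of 13 were DEGs lower and 0 higher (median −0.30). *Cyc1*, the cytochrome c1 gene, had 121, 111, 131 and 119 CPM in WT and 91.5, 88.7, 83.7 and 88.8 CPM in KO, with no overlap (log2 fold change −0.45). *Sdhd*, a membrane anchor of succinate dehydrogenase named after its values were seen, had 121, 119.5, 145 and 142 CPM in WT and 101, 95.1, 88.7 and 102 CPM in KO, also with no overlap (log2 fold change −0.45).

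Complex IV with cytochrome c had 6 DEGs lower of 13 and 0 higher (median −0.34). The mean log2 CPM of these genes separated the groups, with 5.46, 5.20, 5.40 and 5.45 in the WT livers and 4.91, 4.98, 5.02 and 5.06 in the KO livers. The lowest log2 fold change of the 13 was −1.92, and the part of that member in the separation was not tested. *Cox5a* had 34.6, 32.5, 35.3 and 34.996 CPM in WT and 23.1, 25.7, 20.8 and 28.7 CPM in KO (log2 fold change −0.48). *Cycs*, the gene of cytochrome c itself, had 73.99, 54.8, 60.5 and 69.4 CPM in WT and 52.7, 47.7, 39.5 and 51.1 CPM in KO (log2 fold change −0.44). In both genes every KO liver was below every WT liver. Of 18 ATP synthase subunits, 6 were DEGs lower, 1 of them called by edgeR (5 members by DESeq2), and 0 were DEGs higher (median −0.21). *Atp5b*, the catalytic beta subunit, had 939.7, 912, 929.9 and 939 CPM in WT and 771, 706, 716 and 677 CPM in KO, 2 narrow groups that did not overlap (log2 fold change −0.37). *Atp5g1*, a gene of the membrane ring named after its values were seen, had 58.4, 51.5, 64.9 and 65.99 CPM in WT and 41.6, 43.3, 41.8 and 41.6 CPM in KO, again with no overlap (log2 fold change −0.52).

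**Figure D2:**
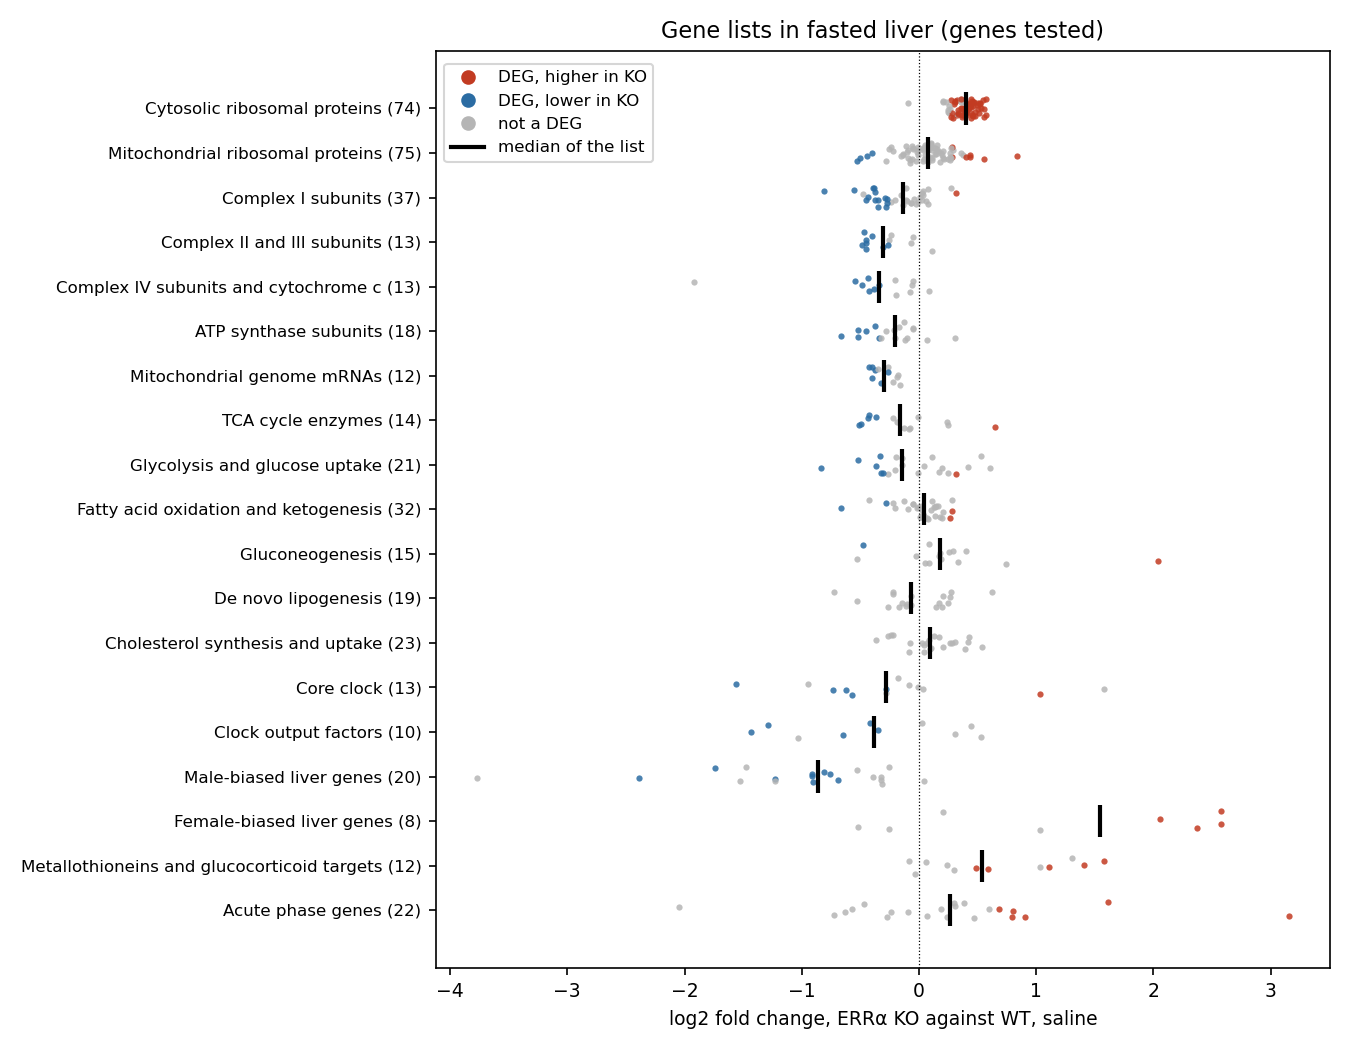
Log2 fold change (ERRα KO against WT, saline) of each tested member of 19 gene lists, with DEGs coloured by direction and a line at the list median. The OXPHOS lists have medians of −0.34 to −0.14 and cytosolic ribosomal proteins of 0.40, against 0.00 over all genes tested.

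Since ERRα binds the extended half-site, promoters were searched on both strands for TCAAGGTCA, for TNAAGGTCA and for AAGGTCA, each shorter motif being contained in the longer. The promoters are RefSeq sequences of GRCm38.p6 from 250 bases before to 50 after each gene's start, and 10288 of the 13481 genes tested had one. TCAAGGTCA was in 126 of all 27025 promoters (0.466%) and in 32 of those of genes tested (0.311%). It was in 3 of 543 DEGs lower, *Sdhd*, *Sftpa1* and *Abcc10* (0.552%), and in 1 of 616 DEGs higher, *Sgk1*, genes named here for that match alone. TNAAGGTCA was in 387 of all promoters (1.43%), in 102 of genes tested (0.991%), in 10 of the DEGs lower and in 5 of the DEGs higher. AAGGTCA was in 1454 of all promoters (5.38%), in 431 of genes tested (4.19%), in 33 DEGs lower (6.08%) and in 24 DEGs higher (3.90%). Of 66 OXPHOS subunits with a promoter, 2 held TCAAGGTCA, *Sdhd* and *Atp5g3*, 3 held TNAAGGTCA (4.55%) and 9 held AAGGTCA (13.6%). Of 55 cytosolic ribosomal proteins, 0 held TCAAGGTCA, 2 held TNAAGGTCA (3.64%) and 3 held AAGGTCA (5.45%). The promoters of *Sdhd* and *Atp5g3* are shown as the 2 subunits with the full motif, and that of the called subunit *Atp5o* as one without any of the 3. Capitals mark TCAAGGTCA as it reads on the opposite strand. *Sdhd* is at chr9:50603800-50604099 (minus strand, GRCm38.p6), where the match starts 36 bases past the gene's start and the window also covers the start of *Timm8b* on the other strand. *Atp5g3* is at chr2:73911277-73911576 (minus strand), with the match starting 52 bases before the start. *Atp5o* is at chr16:91931581-91931880 (minus strand), a window that also holds part of *D430001F17Rik* on the plus strand.
Sdhd: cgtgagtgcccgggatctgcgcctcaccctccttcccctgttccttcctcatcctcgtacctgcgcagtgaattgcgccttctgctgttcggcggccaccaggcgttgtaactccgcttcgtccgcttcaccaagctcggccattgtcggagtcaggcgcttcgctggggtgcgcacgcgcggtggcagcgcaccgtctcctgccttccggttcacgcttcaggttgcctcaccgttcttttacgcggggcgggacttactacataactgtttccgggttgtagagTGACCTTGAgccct
Atp5g3: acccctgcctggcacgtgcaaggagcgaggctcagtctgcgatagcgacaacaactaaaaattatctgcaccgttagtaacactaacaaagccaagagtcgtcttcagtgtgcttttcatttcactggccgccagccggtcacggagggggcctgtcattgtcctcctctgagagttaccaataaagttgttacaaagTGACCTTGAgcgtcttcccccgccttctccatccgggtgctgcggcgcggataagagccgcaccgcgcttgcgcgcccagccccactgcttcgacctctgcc
Atp5o: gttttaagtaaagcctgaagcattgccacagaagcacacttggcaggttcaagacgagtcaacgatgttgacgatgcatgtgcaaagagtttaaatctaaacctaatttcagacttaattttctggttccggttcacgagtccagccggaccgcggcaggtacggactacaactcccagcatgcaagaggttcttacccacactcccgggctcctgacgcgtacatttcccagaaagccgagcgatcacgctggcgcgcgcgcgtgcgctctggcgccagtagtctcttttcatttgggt
A match says only that these letters are in the window.

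Transcripts of the mitochondrial genome itself were also lower, all 12 of those tested having a negative log2 fold change (median −0.30), with 6 DEGs lower. The mean log2 CPM of the 12 was 9.05, 8.69, 8.88 and 8.97 in WT and 8.64, 8.50, 8.85 and 8.42 in KO, so the groups overlapped through WT replicate 2 and KO replicate 3. *mt-Nd5*, a Complex I subunit named after its values were seen, had 6418, 6404, 6369 and 7112 CPM in WT and 5192, 5214, 5897 and 3997 CPM in KO (log2 fold change −0.37). Every KO liver was below every WT liver for this gene, KO replicate 4 being the lowest. *mt-Atp6* had 48.9, 37.1, 42.7 and 39.3 CPM in WT and 32.2, 29.6, 38.6 and 26.9 CPM in KO, with KO replicate 3 inside the WT range (log2 fold change −0.40). The number of DEGs among the 12 was 1 without WT replicate 4 or KO replicate 4, 2 without WT replicate 1 or KO replicate 2 or with the replicate number as a block, 3 without KO replicate 1, 4 without WT replicate 3, 8 without KO replicate 3 and 9 without WT replicate 2.

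Of 14 TCA cycle enzymes, 5 were DEGs lower and 1 was a DEG higher (median −0.16), and their mean log2 CPM separated the groups, with 6.84, 6.86, 6.79 and 6.83 in WT and 6.73, 6.68, 6.72 and 6.65 in KO. *Idh3b*, a subunit gene of the NAD-linked isocitrate dehydrogenase, had 101, 90.6, 103 and 105 CPM in WT and 77.1, 76.6, 66.1 and 63.4 CPM in KO, with no overlap (log2 fold change −0.50). *Idh3a*, of the same enzyme, had 32.1, 33.9, 34.5 and 26.7 CPM in WT and 16.7, 26.7, 18.8 and 26.6 CPM in KO, and KO replicates 2 and 4 were level with the lowest WT liver (log2 fold change −0.52). *Ogdh*, of the 2-oxoglutarate dehydrogenase complex and named after its values were seen, had 321, 337, 321 and 303 CPM in WT and 249, 232, 269.8 and 201 CPM in KO (log2 fold change −0.43). The 1 DEG higher was *Fh1*, the fumarase gene, named after its values were seen, with 234, 242, 151 and 166 CPM in WT and 313, 218, 461 and 253 CPM in KO, and its groups overlapped (log2 fold change 0.65). *Cs*, which encodes citrate synthase, was not a DEG (log2 fold change −0.13). Of 12 genes of the pyruvate dehydrogenase complex and its kinases and phosphatases, 4 were DEGs lower and 1 higher (median −0.27), with 2 lower without WT replicate 2. 2 kinase genes, which encode inhibitors of the complex, differed in sign, and *Pdk2* had 84.5, 98.1, 73.2 and 96.4 CPM in WT and 61.1, 62.4, 64.6 and 62.5 CPM in KO (log2 fold change −0.49), with no overlap. *Pdk4*, a kinase gene known to be induced by fasting, had 4.30, 4.08, 7.57 and 5.66 CPM in WT and 13.5, 7.90, 10.3 and 4.25 CPM in KO, with KO replicate 4 inside the WT range (log2 fold change 0.73).

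Other mitochondrial groups had medians near 0. Among 75 mitochondrial ribosomal proteins, 7 were DEGs higher and 4 lower (median 0.08), and *Mrpl12* was lower in every KO liver (log2 fold change −0.50). Of 31 genes of mitochondrial import and quality control, 2 were DEGs higher and 3 lower (median 0.05), the member with the lowest p being *Tomm40l* (log2 fold change −0.80). Of 17 genes of mitochondrial DNA upkeep, dynamics and biogenesis, 0 were DEGs higher and 1 lower (median −0.03). That gene was *Mfn2*, for the fusion protein mitofusin 2, with 176, 223, 166 and 192 CPM in WT and 148, 156, 96.97 and 134 CPM in KO, every KO liver being below every WT liver (log2 fold change −0.50). Of 36 SLC25 carriers of the inner membrane, 5 were DEGs higher and 4 lower (median 0.01). *Slc25a22*, a glutamate carrier gene, had 307, 311, 286 and 252 CPM in WT and 507, 417, 628 and 392 CPM in KO, with no overlap (log2 fold change 0.75).

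Fatty acid oxidation and ketogenesis, the main fuel pathways of the fasted liver, held 2 DEGs higher and 2 lower of 32 genes (median 0.04). *Cpt1a*, the carnitine palmitoyltransferase of fatty acid entry, had 1185, 1636, 1076 and 1089 CPM in WT and 1327, 1205, 1389 and 1049 CPM in KO, fully overlapping groups. *Acadm*, for medium-chain acyl-CoA dehydrogenase, had a log2 fold change of 0.14 and was not a DEG. The member with the lowest p was *Acad11* (log2 fold change −0.28), lower in every KO liver. Of 21 PPARα targets, 4 were DEGs higher and 0 lower, while the median was −0.05. *Fgf21*, a fasting hormone gene, had 2.39, 0.860, 3.65 and 2.002 CPM in WT and 9.26, 3.08, 8.57 and 5.44 CPM in KO, with KO replicate 2 inside the WT range (log2 fold change 1.56). *Plin2*, which coats lipid droplets and is named after its values were seen, had 612, 408, 596 and 427 CPM in WT and 909.9, 622, 784 and 751 CPM in KO, with no overlap (log2 fold change 0.59). After insulin *Plin2* was a DEG lower in the KO livers (log2 fold change −0.51). Of 17 lipoprotein and angiopoietin-like genes, 3 were DEGs higher and 0 lower (median 0.16). *Apoc2*, the activator of lipoprotein lipase, had 103, 81.7, 100.1 and 115 CPM in WT and 151, 167, 163 and 144 CPM in KO, again with no overlap (log2 fold change 0.64). *Apoa4* had 204, 425, 317 and 339.8 CPM in WT and 962, 409, 794 and 563 CPM in KO, KO replicate 2 being inside the WT range (log2 fold change 1.09).

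Among 21 genes of glycolysis and glucose uptake, 6 were DEGs lower and 1 higher, while 12 had a negative and 9 a positive log2 fold change (median −0.14), and 3 were DEGs lower without KO replicate 2. *Eno1*, the enolase gene, had 353, 444, 373 and 418 CPM in WT and 294, 265, 249.9 and 296 CPM in KO (log2 fold change −0.52). *Pgam1*, for phosphoglycerate mutase and named after its values were seen, had 72.02, 63.8, 64.1 and 63.7 CPM in WT and 51.2, 51.7, 51.5 and 54.7 CPM in KO (log2 fold change −0.33). Neither gene had overlapping groups. Gluconeogenesis had 1 DEG higher and 1 lower of 15 (median 0.18), with log2 fold changes from −0.53 to 2.03. The lower one was *Mdh1*, the cytosolic malate dehydrogenase, with 334, 301, 282 and 306 CPM in WT and 237, 208, 231 and 205 CPM in KO and no overlap (log2 fold change −0.47). *Pck1* and *G6pc*, the enzymes that commit carbon to glucose and release it, were not DEGs (log2 fold changes 0.08 and 0.18). De novo lipogenesis had 0 DEGs among 19 genes (median −0.07), *Fasn*, *Srebf1* and *Elovl5* included, with log2 fold changes of 0.14, −0.52 and 0.24. Cholesterol synthesis and uptake also had 0 DEGs, among 23 genes (median 0.10; *Pmvk* 0.31), yet without KO replicate 4 the median was −0.53 and 6 genes were DEGs lower.

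Cytosolic ribosomal proteins, the protein parts of the translating ribosome, were higher as a group in the KO livers. Of 74 tested, 61 were DEGs higher (against 5.98% of all genes) and 0 lower, 73 had a positive log2 fold change, and the median was 0.40, with no member called by edgeR and 20 by DESeq2, all higher. In 38 of the 74 the groups did not overlap. The same share over all genes tested is not given, so this count describes the list alone. *Rpl36*, the member with the lowest p, had 40.1, 36.8, 41.1 and 44.1 CPM in WT and 56.8, 55.8, 60.9 and 63.5 CPM in KO, a difference of 0.55 on the log2 scale (standard error 0.10) with an adjusted p of 0.0960 by edgeR's quasi-likelihood F-test and Benjamini-Hochberg adjustment, higher in 4 of 4 KO livers. *Rpl30* and *Rpl32*, named after their values were seen, had the same order, and by DESeq2 all 3 were called. *Rpl30* had 46.7, 38.03, 43.6 and 44.3 CPM in WT and 58.04, 56.7, 68.02 and 73.7 CPM in KO, and *Rpl32* had 75.01, 65.1, 70.5 and 74.1 CPM in WT and 96.6, 89.5, 105 and 106 CPM in KO. The mean log2 CPM of the 74 genes was 6.36, 6.05, 6.20 and 6.25 in WT replicates 1 to 4 and 6.54, 6.43, 6.71 and 6.74 in KO replicates 1 to 4, so the groups did not overlap. With each liver left out in turn, 49 to 70 of the genes were DEGs higher, and the direction was the same with DESeq2 size factors and RLE normalization. Ribosomal protein genes have many processed pseudogenes, so the share of reads counted for each gene is uncertain.

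Properties of the libraries also differed between the groups. Ribosomal protein genes took 0.827, 0.630, 0.765 and 0.763% of counts in the WT livers and 0.860, 0.876, 0.971 and 1.07% in the KO livers. Genes with short exonic sequence were higher in the KO livers across the protein-coding genes tested, with a median log2 fold change of 0.10 in 237 genes under 1000 bases and of −0.07 in 2296 genes of 8000 bases and over. The median exonic length was 1835 bases for ribosomal proteins, 1718 for OXPHOS subunits and 4488 for all protein-coding genes tested. Within bins of length the ribosomal medians were 0.39 to 0.44, while in the same bins all protein-coding genes had medians of −0.01 to 0.11. OXPHOS medians went from −0.05 under 1000 bases to −0.39 in genes of 4000 to 8000 bases. The part of RNA quality or library preparation in these results was not tested.

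**Figure D3:**
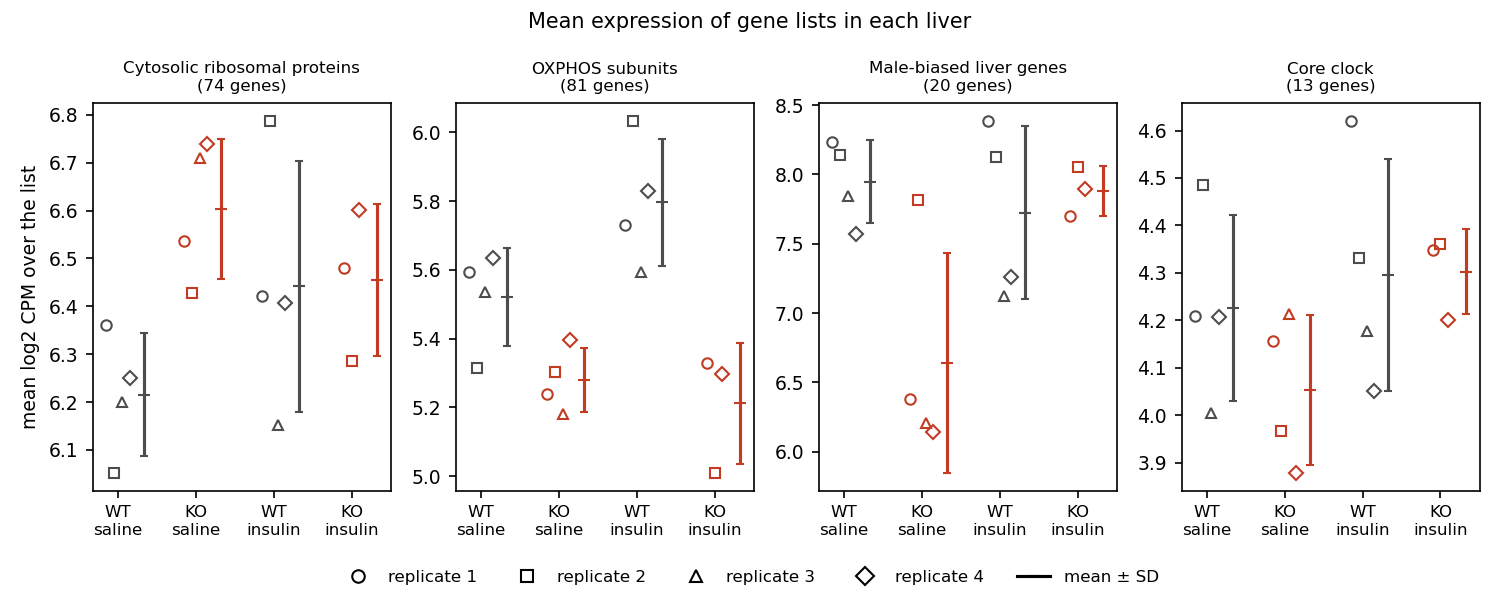
Mean log2 CPM over cytosolic ribosomal proteins (74 genes), OXPHOS subunits (81), male-biased liver genes (20) and core clock genes (13) in each liver of the 4 groups given saline or insulin, with group mean and SD. With saline, the ribosomal mean is above every WT liver in all 4 KO livers, and the male-biased mean is lowest in KO replicates 1, 3 and 4.

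Livers of insulin-injected mice, which are different animals, showed which of these differences were also present 4 h after insulin. There, 8 of 13665 genes were called by edgeR's quasi-likelihood F-test and Benjamini-Hochberg adjustment, and 624 were DEGs higher (4.57%) and 741 lower (5.42%). 3 of the 11 saline calls were also called, *Esrra*, *Cdh1* and *Unc13b*, and all 11 had the same sign. *Cdh1* had a log2 fold change of −3.35 after insulin, with an adjusted p of 7.91e-04, and *Unc13b* of 2.44, with an adjusted p of 0.00525, both by edgeR's quasi-likelihood F-test and Benjamini-Hochberg adjustment, and in both genes 3 of 3 KO livers lay beyond the 4 WT livers in the saline direction. The number of shared calls was 1 without WT saline replicate 1 and 6 without WT insulin replicate 2. *Atp5o* (−0.98), *As3mt* (0.82), *Nav2* (−0.80) and *Wfdc2* (1.40) were DEGs in the same direction after insulin, while *Mfsd2a* (0.05) and *Arl4d* (0.36) were not DEGs. Of the 1520 saline DEGs, 236 were DEGs in the same direction after insulin (15.5% of the saline and 17.3% of the insulin DEGs) and 36 in the opposite direction. DEGs lower recurred in 149 of 714 and DEGs higher in 87 of 806. By sign alone, 921 of the 1509 saline DEGs tested after insulin had the same direction there. Over all genes tested in both, 6891 of 13159 did.

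After insulin, OXPHOS medians were again negative in the KO livers, while ribosomal proteins had a median near 0. OXPHOS medians after insulin were −0.47 for Complex I (23 DEGs lower of 37), −0.62 for Complex II and III (11 of 13), −0.75 for Complex IV with cytochrome c (12 of 12) and −0.73 for ATP synthase (16 of 18), and 0 members were DEGs higher. *Cycs* was −0.44 with saline and −0.90 after insulin, *Cyc1* −0.45 and −0.89, *Atp5b* −0.37 and −0.52, and *Sdhd* −0.45 and −1.05. *Atp5g1* was called after insulin, with a log2 fold change of −1.13 and an adjusted p of 0.0498 by edgeR's quasi-likelihood F-test and Benjamini-Hochberg adjustment, lower in 3 of 3 KO livers. Mitochondrial genome mRNAs had a median of −0.04 after insulin and 0 DEGs, and ribosomal proteins had a median of −0.01 with 2 DEGs higher of 74. The mean log2 CPM over ribosomal proteins was 6.42, 6.79, 6.15 and 6.41 in WT insulin replicates 1 to 4 and 6.48, 6.29 and 6.60 in KO insulin replicates 1, 2 and 4, with overlapping groups. The change in the KO effect between saline and insulin was tested directly over 14670 genes, and 0 were called by edgeR's quasi-likelihood F-test and Benjamini-Hochberg adjustment, with a smallest adjusted p of 0.389, while 1289 (8.79%) had an unadjusted p under 0.05 and DESeq2 called 20. An unadjusted p under 0.05 for that change was found in 23 of the 74 ribosomal proteins, 4 of 37 Complex I, 5 of 13 Complex II and III, 5 of 13 Complex IV (with cytochrome c) and 9 of 18 ATP synthase subunits, 19 of 75 mitochondrial ribosomal proteins, 8 of 31 genes of mitochondrial import and quality control and 0 of 12 mitochondrial genome mRNAs.

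**Figure D4:**
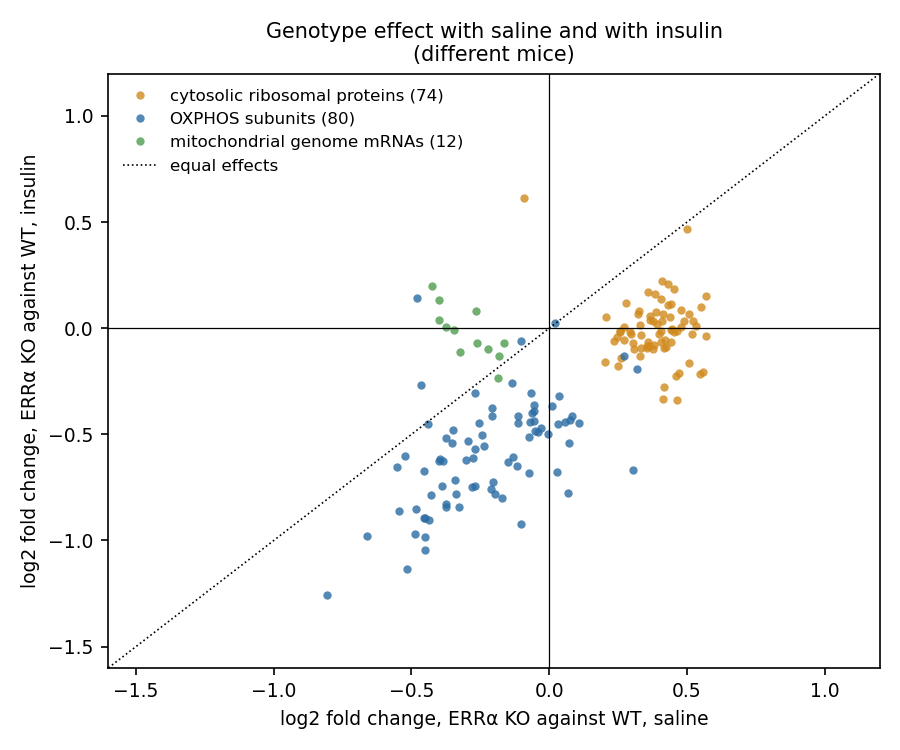
Log2 fold change of ERRα KO against WT with saline (x axis) and after insulin (y axis, other mice) for cytosolic ribosomal proteins, OXPHOS subunits and mitochondrial genome mRNAs. Ribosomal proteins lie to the right near 0 on the y axis (medians 0.40 and −0.01), and most OXPHOS subunits lie below 0 on the y axis.

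Some of the genes with sex-biased expression in liver, which are set by the pattern of growth hormone release, were DEGs in the KO males. Of 20 male-biased genes, 9 were DEGs lower and 0 higher, and 19 had a negative log2 fold change (median −0.86). Their mean log2 CPM was 8.23, 8.14, 7.85 and 7.57 in WT replicates 1 to 4 and 6.38, 7.82, 6.21 and 6.14 in KO replicates 1 to 4. KO replicate 2 was inside the WT range and the other KO livers were below it, and without KO replicate 2 there were 17 DEGs lower and a median of −1.12. With the replicate number as a block 14 were DEGs lower (median −0.90). *Hsd3b5*, a steroid dehydrogenase gene named after its values were seen, had 27.2, 14.2, 10.96 and 28.3 CPM in WT and 2.86, 8.47, 1.76 and 2.33 CPM in KO (log2 fold change −2.39). *C6*, a complement gene and the male-biased member with the lowest p, had 435, 457, 341 and 323 CPM in WT and 159, 284, 184 and 199 CPM in KO (log2 fold change −0.92), and in neither gene did the groups overlap. Of 20 female-biased genes 8 passed the filter on low counts, of which 4 were DEGs higher and 0 lower (median 1.54), *Cyp17a1* among them. Without KO replicate 3 their median was 0.33 with 2 DEGs, 2 were DEGs without WT replicate 3 or WT replicate 4, and with the replicate number as a block 2 were DEGs (median 0.96). Such genes pass the filter through the group in which they are high, so their count and median are a description of the 8 alone. After insulin the medians were −0.03 for male-biased and 0.63 for female-biased genes. Of 22 genes of insulin and growth hormone signalling, 2 were DEGs higher and 5 lower (median −0.04), and *Igf1*, the main hepatic target of growth hormone, was not a DEG (log2 fold change −0.16).

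Some clock genes were DEGs at the single time of day sampled. Of 13 core clock genes, 5 were DEGs lower and 1 was a DEG higher (median −0.29), with 3 to 6 lower and 0 to 2 higher with each liver left out. *Per3*, a period gene, had 10.9, 11.9, 5.54 and 20.7 CPM in WT and 3.66, 4.55, 3.06 and 5.28 CPM in KO (log2 fold change −1.56). WT livers ranged widely, and the highest KO liver was just below the lowest WT liver. *Arntl*, the BMAL1 gene that peaks in antiphase to the period genes, was the DEG higher and is named after its values were seen, with 2.33, 4.47, 5.75 and 3.66 CPM in WT and 5.36, 5.73, 16.6 and 5.40 CPM in KO. KO replicate 3 stood alone at the top, and *Arntl* overlapped between the groups (log2 fold change 1.03, or 0.44 without KO replicate 3). Without KO replicate 3, WT replicate 1 or WT replicate 4 no core clock gene was a DEG higher. Of 10 clock output factors, 5 were DEGs lower and 0 higher (median −0.39). *Dbp* had 30.7, 34.3, 14.1 and 48.5 CPM in WT and 13.7, 12.5, 8.46 and 17.6 CPM in KO, with WT replicate 3 inside the KO range (log2 fold change −1.29). DESeq2 called *Per3* and *Dbp*, and edgeR called *Dbp* with the replicate number as a block. After insulin, *Per3* had a log2 fold change of 0.08 and the core clock a median of 0.05 with 0 DEGs, while clock output factors had a median of −0.25 with 1 DEG lower (*Dbp* −0.55, not a DEG). An unadjusted p under 0.05 for the change in the KO effect was found in 1 of 13 core clock genes and 3 of 10 output factors.

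Some single genes of stress responses were higher in KO replicates 1, 3 and 4 and not clearly in KO replicate 2, while most members of the stress lists given below were not DEGs. *Igfbp1*, an insulin-repressed and stress-induced secreted protein gene, had 169, 202, 155 and 78.2 CPM in WT and 893, 167, 1173 and 362 CPM in KO (log2 fold change 2.10, standard error 0.51). *Chac1*, a target of the integrated stress response, had 0.812, 1.11, 0.369 and 0.629 CPM in WT and 9.95, 1.30, 5.89 and 5.19 CPM in KO (log2 fold change 2.94). *Cxcl1*, a neutrophil chemokine gene, had 2.78, 0.444, 1.22 and 1.23 CPM in WT and 16.4, 1.03, 12.2 and 21.1 CPM in KO (log2 fold change 3.16). In these genes KO replicate 2 was in or near the WT range and the other KO livers were well above it. The same held for 3 genes named after their values were seen. *Junb*, an immediate early gene, had 20.2, 22.1, 18.1 and 16.5 CPM in WT and 111, 19.8, 70.7 and 52.9 CPM in KO, and *Lepr*, the leptin receptor gene, had 7.57, 12.7, 7.69 and 8.17 CPM in WT and 30.7, 5.14, 76.4 and 22.7 CPM in KO, KO replicate 2 being the lowest of the 8. *Mt1*, a metallothionein gene, had 412, 524, 55.3 and 198 CPM in WT and 1104, 183, 1149.7 and 1116 CPM in KO. *Gadd45g*, also named after its values were seen, was above WT in all 4 KO livers, with 4.93, 6.77, 4.48 and 2.75 CPM in WT and 36.1, 10.7, 22.9 and 16.6 CPM in KO (log2 fold change 2.19). Without KO replicate 2, *Igfbp1*, *Chac1*, *Cxcl1*, *Junb*, *Lepr* and *Gadd45g* were called by edgeR's quasi-likelihood F-test and Benjamini-Hochberg adjustment, as were *Cyp7b1*, *Cyp17a1*, *Ifi27*, *C6* and *Hsd3b5*. With all 8 livers DESeq2 called these genes except *Lepr* and *Cyp7b1*, and *Chac1*, *Gadd45g*, *Cyp17a1*, *Ifi27*, *C6* and *Hsd3b5* were also called by edgeR without the filter on low counts.

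**Figure D5:**
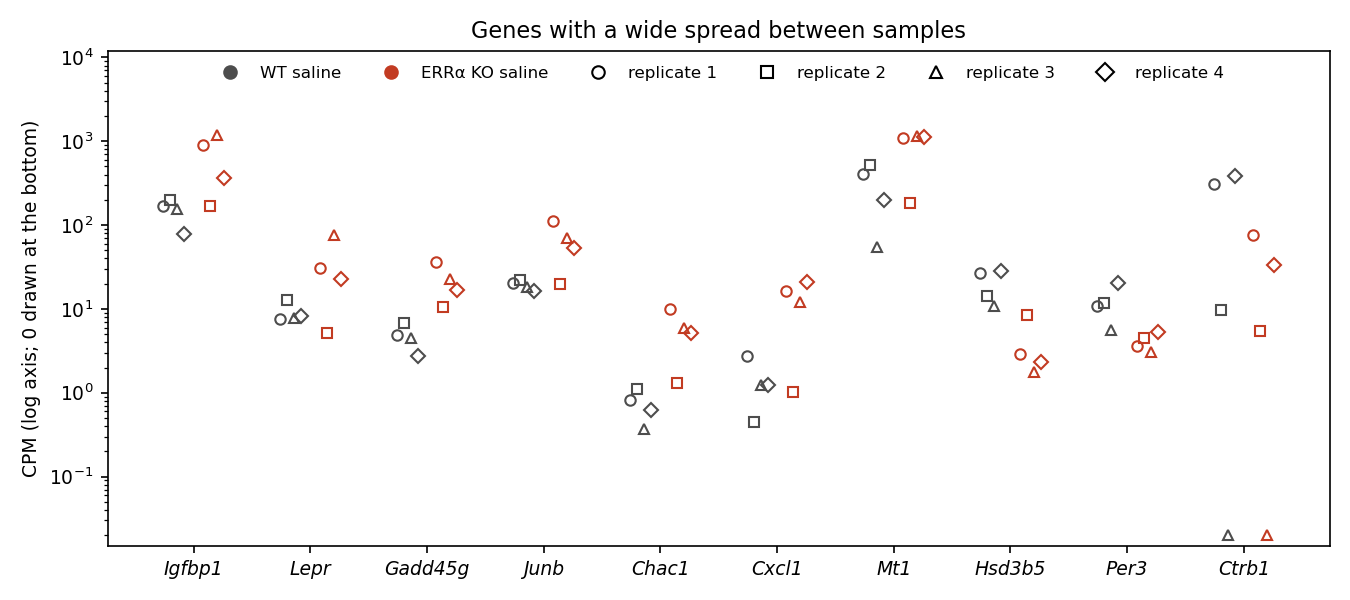
Levels of 10 genes whose replicates spread widely, chosen after their values were seen, in each saline liver (CPM, log axis, with values of 0 drawn at the bottom). In *Igfbp1*, *Junb*, *Cxcl1* and *Mt1*, KO replicate 2 lies among the WT livers, in *Chac1* just above and in *Lepr* just below them, while *Ctrb1* spreads over both genotypes.

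By list, 4 of 16 genes of the integrated and mitochondrial stress response were DEGs higher and 0 lower (median 0.34). Endoplasmic reticulum chaperones had 2 DEGs higher and 0 lower of 19 (median 0.21), with 6 higher without KO replicate 2, and *Dnajb9* was highest in KO replicate 1 (log2 fold change 0.88). NRF2 and antioxidant genes had 2 DEGs higher and 0 lower of 23 (median −0.01), *Hmox1* among them (log2 fold change 0.79). Acute phase genes had 6 DEGs higher and 0 lower of 22 (median 0.27), and 8 had a negative log2 fold change. Their mean log2 CPM was 8.53, 8.90, 6.63 and 7.23 in WT and 8.56, 7.37, 7.84 and 9.20 in KO, so the groups overlapped widely. With each liver left out, the acute phase median was −0.01 to 0.67, with 2 to 8 DEGs higher and 0 to 2 lower, and with the replicate number as a block 3 were DEGs higher. Metallothioneins and glucocorticoid targets had 5 DEGs higher and 0 lower of 12 (median 0.54, and 0.44 to 0.90 with each liver left out), the 5 being 2 without KO replicate 1 and 3 without KO replicate 3 or WT replicate 4, and *Gadd45b* was the member with the lowest p (log2 fold change 1.41). DNA replication and cell cycle genes had 1 DEG higher and 2 lower of 20 (median −0.07). The higher one was the cell cycle inhibitor gene *Cdkn1a*, with 10.6, 27.8, 22.8 and 6.82 CPM in WT and 68.8, 24.3, 92.03 and 39.7 CPM in KO (log2 fold change 1.72), and KO replicate 2 was inside the WT range.

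Of 33 genes of the urea cycle and amino acid breakdown, 30 had a positive log2 fold change (median 0.16; 0.24 after insulin), with 4 DEGs higher and 0 lower. Their mean log2 CPM was 8.21, 8.45, 7.99 and 8.18 in WT and 8.53, 8.30, 8.86 and 8.05 in KO, so the groups overlapped. *Oat*, the ornithine aminotransferase gene of pericentral hepatocytes, had 1254, 1394, 1050.4 and 1512 CPM in WT and 2593, 1909.6, 1769 and 1934 CPM in KO, with no overlap (log2 fold change 0.66; 0.61 after insulin). *Tat*, the tyrosine aminotransferase gene, had overlapping groups (log2 fold change 0.59). The count of DEGs was 2 without WT replicate 3 and 11 without KO replicate 4. Pericentral markers had 1 DEG higher and 0 lower of 17 (median 0.03), and periportal markers 3 higher and 1 lower of 18 (median 0.17, and 0.00 without KO replicate 3). Bile acid synthesis and transport had 1 DEG higher and 1 lower of 15 (median −0.01). *Cyp7a1*, the rate-limiting enzyme of bile acid synthesis, had 198, 253, 244 and 206 CPM in WT and 16.6, 370.3, 251 and 254 CPM in KO. KO replicate 1 was far below the other 7 livers, and the log2 fold change was −0.01, or 0.37 without it. *Cyp7b1*, which encodes an oxysterol hydroxylase and is also male-biased, had 385, 350.2, 224 and 190.2 CPM in WT and 79.7, 224, 106 and 80.4 CPM in KO, with KO replicate 2 inside the WT range (log2 fold change −1.23).

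Some genes of drug metabolism were DEGs in each direction, where over all genes tested 5.98% were higher and 5.30% lower. Of 44 cytochrome P450 genes, 4 were DEGs higher and 7 lower (median −0.08), and of 43 conjugation enzymes 7 were DEGs higher and 3 lower (median 0.04), with 11 lower without KO replicate 2. The P450 and conjugation families hold close paralogs, so reads may be divided between them and single members are uncertain. *Sult5a1*, a sulfotransferase gene, had 2.70, 8.11, 3.42 and 4.40 CPM in WT and 19.8, 27.2, 12.8 and 9.52 CPM in KO, with no overlap (log2 fold change 1.90; 2.14 after insulin). Among 32 nuclear receptors other than the ERRs, 2 were DEGs higher and 2 lower (median −0.03), and *Nr3c2*, the mineralocorticoid receptor gene, was the member with the lowest p (log2 fold change −0.35). Interferon-stimulated genes had 2 DEGs higher and 6 lower of 47 (median −0.11; −0.32 after insulin). *Ifi27*, a DEG higher, had 32.9, 35.002, 47.3 and 42.4 CPM in WT and 65.8, 129, 68.4 and 78.4 CPM in KO, with no overlap (log2 fold change 1.11). After insulin it was called, with a log2 fold change of 1.09 and an adjusted p of 0.0161 by edgeR's quasi-likelihood F-test and Benjamini-Hochberg adjustment, higher in 3 of 3 KO livers. *Irf7*, named after its values were seen, had 21.3, 25.9, 30.8 and 36.98 CPM in WT and 17.2, 23.02, 19.8 and 18.5 CPM in KO, with partly overlapping groups (log2 fold change −0.55).

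Markers of other liver cells were lower in part. Of 8 Kupffer cell (liver macrophage) markers, 3 were DEGs lower and 0 higher (median −0.46), which was 0 without WT replicate 2 and 5 without WT replicate 1. Their summed level was 185, 396, 249 and 274 CPM in the WT livers and 219, 205, 203 and 232 CPM in the KO livers, with *Clec4f* the highest on average over the 8 livers and no marker at 0, and WT replicate 1 was the lowest and WT replicate 2 the highest of the 8. *Adgre1*, the F4/80 gene, had 7.76, 25.3, 14.1 and 17.95 CPM in WT and 9.05, 8.32, 8.62 and 12.4 CPM in KO, and *Csf1r*, named after its values were seen, had 33.8, 91.9, 51.9 and 63.8 CPM in WT and 42.8, 36.4, 38.6 and 42.1 CPM in KO. Both genes overlapped between the groups through WT replicate 1. Of 8 endothelial markers, 2 were DEGs lower and 0 higher (median −0.09; 0 lower without WT replicate 2), *Kdr* among them (log2 fold change −0.43). Their summed level was 173, 299, 259 and 261 CPM in WT and 222, 224, 198 and 213 CPM in KO, with *Kdr* the highest on average and none at 0. Of 8 stellate cell markers, 1 was a DEG lower, *Col1a1* (log2 fold change −0.74; list median −0.07), and in 8 hepatocyte markers 1 was a DEG higher, *Tat* (median 0.10), with *Alb* the most abundant. The part of these cells in the group results was not tested.

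Among blood cell markers, *Ccr2*, a monocyte chemokine receptor gene, had 0.367, 0.472, 0.439 and 0.978 CPM in WT and 1.67, 1.52, 1.85 and 1.52 CPM in KO, and was the 1 DEG, higher, of 5 neutrophil and monocyte markers (median 0.80). The levels were low and did not overlap (log2 fold change 1.53). *Alas2*, which starts heme synthesis in erythroid cells, had 78.2, 111, 82.2 and 107 CPM in WT and 61.1, 67.9, 58.8 and 50.6 CPM in KO, and was the 1 DEG, lower, of 5 erythrocyte markers (median −0.41), of which *Hbb-bs* was the highest on average. B cell markers had 0 DEGs of 4 tested (median 0.28; *Ighm* 0.32), and none of the T and NK cell markers passed the filter. Pancreatic acinar genes were present in some livers of both genotypes, with a summed level of 1007, 48.5, 0.0231 and 1419 CPM in the WT livers and 234, 19.2, 0.132 and 106 CPM in the KO livers. *Ctrb1*, the chymotrypsinogen gene named after its values were seen, was the highest on average though not in every liver, with 306, 9.77, 0 and 386 CPM in WT and 76.4, 5.43, 0 and 33.1 CPM in KO. WT replicates 1 and 4 and KO replicate 1 were highest and replicate 3 of each genotype was near 0, with 5 of the 6 markers at 0, and 0 of the 5 genes tested were DEGs (median −2.85; *Cela2a* −2.95; 4 DEGs lower without WT replicate 3). Adipocyte markers had 0 DEGs of 3 tested (median 0.69; *Fabp4* 0.59), and the 1 skeletal muscle marker tested, *Mylpf*, was not a DEG (log2 fold change −0.60).

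In ERRα 3SA livers, whose receptor is present but altered, 0 of 13339 genes were called by edgeR's quasi-likelihood F-test and Benjamini-Hochberg adjustment (996 with an unadjusted p under 0.05, and 37 by DESeq2). By the DEG thresholds, 333 genes were higher and 318 lower in the 3SA livers. There the log2 fold change against WT littermates was −0.24 for *Esrra*, 0.24 for *Unc13b*, 0.21 for *Cdh1*, 0.08 for *As3mt*, −0.36 for *Mfsd2a* and −0.05 for *Atp5o*. The 3SA livers came from another experiment whose labels give no fast, so the values stand beside those of the KO and the difference between them was not tested.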

How the data were processed

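RNA of frozen livers was sequenced, and the deposited values are raw counts per gene. The authors aligned the reads to mm10 and counted them on genes with STAR 2.5, and did not normalize these deposited counts. Reads shared by paralogs or overlapping genes were assigned or dropped in that step. Of 35275 gene identifiers, 34490 (97.8%) had a symbol in GENCODE M21.

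Each comparison was tested in R 4.3.3 with edgeR 4.0.16 (filterByExpr, TMM scaling, quasi-likelihood F-test), with Benjamini-Hochberg adjustment over all genes tested and a call at an adjusted p under 0.05. DEGs follow the study's thresholds, with p values and fold changes of edgeR here and of DESeq2 in the study. Each fit held the groups it compares, and the test of the change in the KO effect with insulin used its 4 groups. CPM were scaled by TMM, and log2 CPM had a prior count of 2. Replicate numbers come from the labels. Replicates of a group differed by more than sampling noise.

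Genes named are *Esrra*, up to 10 rises and 10 falls among calls without overlap (6 and 3 found, predicted genes left out), the called members or else the member with the lowest p of each list, a set of key metabolic genes, and called neighbours of *Esrra* (0 found). Other genes were chosen after their values were seen and the text says so. Members and lists were chosen with earlier results of these data known. Lists are described by counts and medians. DESeq2 1.42.0, RLE normalization, no filter and a stricter filter, all groups in one fit, the replicate number as a block and each liver left out were tried. Scripts were tested on simulated data. Figures used Python 3.11.15 with matplotlib 3.10.9. Promoters came from RefSeq (GRCm38.p6). Muscle samples were not used. Some items withheld for evaluation are not reported here.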

Additional observations from a re-analysis of the deposited data

Results flagged for a closer look

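Among 294 groups of 4 livers (values of the genes named, list means and library measures), 21 had 1 liver far from the other 3, by the gap to the nearest of them as a share of the whole range (Dixon's ratio, taken for genes on log2 CPM after adding 0.05, past its 95% critical value). Some of these genes were named for their spread, so no number expected by chance is given. In each, the value of that liver is given against the range of the other 3 of its group. KO replicate 3 had *Mylpf* at 0.154 CPM against 0.563 to 0.610, *Pck1* at 5259 CPM against 4309 to 4387, *Acadm* at 356 CPM against 534 to 541, *Arntl* at 16.6 CPM against 5.36 to 5.73 and the share of counts on mitochondrial genome transcripts at 3.91% against 3.16 to 3.21%. In KO replicate 4 were *Atp5o* at 50.2 CPM against 44.6 to 44.97, *Srebf1* at 43.3 CPM against 27.4 to 28.8, *Pgam1* at 54.7 CPM against 51.2 to 51.7 and the mean log2 CPM of conjugation enzymes at 5.24 against 5.64 to 5.68. WT replicate 2 had *Hmox1* at 23.1 CPM against 11.98 to 12.99, *Lepr* at 12.7 CPM against 7.57 to 8.17, the mean log2 CPM of mitochondrial import and quality control at 4.62 against 4.74 to 4.75 and the mean log2 CPM of mitochondrial ribosomal proteins at 3.69 against 3.97 to 3.98. KO replicate 2 stood apart with *Atp5g1* at 43.3 CPM against 41.6 to 41.8, *Mt1* at 183 CPM against 1104 to 1149.7 and the mean log2 CPM of male-biased liver genes at 7.82 against 6.14 to 6.38. KO replicate 1 had *Cyp7a1* at 16.6 CPM against 251 to 370.3 and *Ndufs1* at 75.6 CPM against 66.5 to 67.5. In WT replicate 1 were *Pmvk* at 8.18 CPM against 5.82 to 6.08 and *Pgam1* at 72.02 CPM against 63.7 to 64.1. In WT replicate 4 was *mt-Nd5* at 7112 CPM against 6369 to 6418. No liver held more than 5 of the 21. None of these values was left out of a comparison.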

How the results depend on the processing

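The 11 saline calls (6 higher and 5 lower) became 219 with DESeq2 (124 and 95), 30 without the filter on low counts (18 and 12) and 1520 by the study's DEG thresholds, and 2 to 47 with each liver left out (1 to 28 higher, 1 to 19 lower). RLE normalization, the stricter filter, all groups in one fit and the replicate block gave 11, 12, 12 and 10 calls. DEGs ranged from 681 to 1005 higher and from 567 to 979 lower with each liver left out. The 8 insulin calls became 228 with DESeq2, 31 without the filter, 13 with the stricter filter and 96 with all groups in one fit, and were 3 to 48 with each liver left out, and its 1365 DEGs were 818 to 1778. The 0 calls for the change in the KO effect were 20 with DESeq2 and 0 with each liver left out, and that fit already held all 4 groups. The 0 calls in 3SA livers were 37 with DESeq2, 2 without the filter and 0 with each liver left out. The 3 calls shared with insulin became 36 with DESeq2, 7 without the filter, 7 with all groups in one fit and 1 to 6 with each liver left out, and the 236 shared DEGs 175 to 309. The cause of these shifts was not tested.

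Of the 10 called genes described, *Mfsd2a*, *Arl4d* and *Nav2* were not called with all groups in one fit, and *Mfsd2a*, *Arl4d*, *Atp5o* and *2310061I04Rik* were not with the replicate block. Same-numbered WT and KO livers had correlations of 0.093, −0.097, 0.165 and 0.119 across genes for replicates 1 to 4. Livers with different numbers had correlations of −0.197 to 0.111. Summed pancreatic acinar markers were highest in replicates 1 and 4 and near 0 in replicate 3 of both genotypes. These values do not settle whether the numbers pair the livers, and the labels do not say that they do. Directions reversed for *Cpt1a*, with log2 fold changes of 0.00965 with the replicate block and −0.0694 to 0.154 with each liver left out, *Cyp7a1* (−0.37 to 0.37) and *Fasn* (−0.22 to 0.34), none of them DEGs, and the cause was not tested. Of 686 list medians under alternatives, 40 changed sign and 678 moved by less than 1 SD of the list's mean log2 CPM between livers of a group. Leaving out 1 of 4 livers moves a group mean by less than that SD. The count of 678 was therefore largely fixed in advance and does not measure stability. Depth limits genes near the filter: *Wfdc2* stood at 0.416 to 2.10 CPM in the WT livers.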

Other observations

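Of the 8 genes called between KO and WT livers after insulin, 3 that are in no list and are not described above are given here. They were chosen after their values were seen. *Lrtm1*, for a membrane protein with leucine-rich repeats, rose there (log2 fold change 1.96), and with saline it had 7.78, 15.6, 2.72 and 10.2 CPM in WT and 12.7, 24.5, 15.2 and 18.9 CPM in KO (log2 fold change 0.98). *Egfr*, the receptor gene for epidermal growth factor, rose there (1.05), and with saline it had 898, 961, 433 and 434 CPM in WT and 1106, 491, 1165 and 645 CPM in KO (log2 fold change 0.32). *Fuom*, the fucose mutarotase gene, fell there (log2 fold change −1.94), and with saline it had 10.2, 9.47, 7.15 and 8.38 CPM in WT and 4.59, 1.93, 7.25 and 4.61 CPM in KO (log2 fold change −0.93). None of the 3 was called with saline.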
